A study of Homo sapiens with 48 samples.

Results

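The genes described here encode the machinery of oxidative phosphorylation, measured by RNA sequencing in HEK293T cells after T-REX of NCBP1. Members were taken by symbol: the mitochondrially encoded subunits of complexes I, III, IV and V, and the nuclear genes named NDUFA, NDUFB, NDUFC, NDUFS, NDUFV, COX4 to COX8, UQCR or ATP5, leaving out numbered pseudogenes. This gave 98 of the 14685 genes in the count tables, where 11 are mitochondrial and 87 nuclear. The pattern that removes numbered pseudogenes also removes MT-ATP6 and MT-ATP8, the mitochondrial subunits of ATP synthase, so their values are given separately and enter no count of members.

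Oxidative phosphorylation passes electrons from nutrients along complexes I to IV of the inner mitochondrial membrane, and ATP synthase, complex V, uses the resulting proton gradient to make ATP. The complexes are built from the products of 2 genomes: the mitochondrial DNA encodes core subunits, and its transcripts are cut from long polycistronic RNAs, while all other subunits are transcribed in the nucleus as capped mRNAs. NCBP1 belongs to the cap-binding complex of the nucleus, which holds the cap of newly made nuclear transcripts. Mitochondrial transcripts carry no such cap.

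HEK293T is a human embryonic kidney cell line, and all cells of the study, controls included, were of the same wild-type genotype and transiently expressed NCBP1 fused to HaloTag. In T-REX the HaloTag anchors Ht-PreHNE, a caged precursor of the lipid-derived electrophile 4-hydroxynonenal (HNE), and light then releases HNE beside the fused protein. The 4 arms were T-REX itself (probe and light), light alone, probe alone and DMSO vehicle, the last 3 being technical controls. Each arm was sampled at 3, 6 and 12 h with 4 biological replicates, which makes 48 libraries. Because the fusion is overexpressed in a transfected population, the libraries average cells with and without it, and fewer cells expressing a gene cannot be told apart from less RNA per cell.

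Libraries held 23952455 to 37099535 gene counts. NCBP1, including reads from the plasmid, took 3.09 to 8.99% of them. The HEK293T markers VIM (432 to 683 CPM, the counts scaled to a common library size), NEFL (33.1 to 102 CPM) and NEFM (21.96 to 47.44 CPM) were present in every library, as were KRT18 (7.01 to 13.7 CPM), KRT8 (4.38 to 10.7 CPM) and LHX1 (0.755 to 3.22 CPM). PAX2 was not analysed here. NEFL was lower than in DMSO at 12 h in T-REX (log2 difference -0.33, edgeR adjusted p = 0.00121) and in probe alone (-0.26, adjusted p = 0.0144). COL1A1 was the only one of the 10 markers of other cell types in the tables, at 2.09 to 6.18 CPM. The third T-REX replicate at 3 h stood apart in the balance of short and long transcripts. For T-REX against each control at 3 h, median differences and edgeR counts of members are also given without it. So is the count of members that changed in T-REX from 3 h to 12 h. Unless stated otherwise, other values include this library.

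Among the 87 nuclear members, 36 encode subunits of complex I (NADH dehydrogenase), 8 of complex III (cytochrome bc1), 11 of complex IV (cytochrome c oxidase, with NDUFA4) and 17 of ATP synthase. A further 8 encode complex I assembly factors (NDUFAF1 to NDUFAF8), 2 encode proteins that act on ATP synthase (ATP5IF1 and ATP5S) and 1, COX7A2L, a supercomplex factor. The remaining members are 3 noncoding RNAs (NDUFA6-DT, NDUFB2-AS1 and NDUFV2-AS1) and UQCRHL, a retrocopy of UQCRH. The tissue-restricted isoforms COX4I2, COX6A2, COX6B2, COX7A1, COX8C and NDUFA4L2 were not analysed here.

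The upstream sequences of 4 nuclear members that were lower in T-REX than in DMSO at 12 h are shown. Of 13 such members with a sequence, 3 matched the motif marked in capitals, and all 3 are shown. ATP5IF1, the only member lower than all 3 controls, had no match and is shown beside them. The 4 sequences thus over-represent matches to this motif among the lower members. They are the 250 bases before the annotated start, from RefSeq on GRCh38.p14: ATP5IF1 at chr1:28235874-28236123 (plus strand), ATP5F1C at chr10:7787927-7788176 (plus strand), ATP5ME at chr4:674277-674526 (minus strand) and NDUFB4 at chr3:120596086-120596335 (plus strand). Capitals mark the core recognised by NRF1, an activator of nuclear respiratory genes.
ATP5IF1: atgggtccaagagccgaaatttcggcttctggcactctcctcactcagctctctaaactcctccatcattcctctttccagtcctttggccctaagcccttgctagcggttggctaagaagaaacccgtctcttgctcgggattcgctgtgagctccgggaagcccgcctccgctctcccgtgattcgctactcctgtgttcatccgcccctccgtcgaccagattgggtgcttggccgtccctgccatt
ATP5F1C: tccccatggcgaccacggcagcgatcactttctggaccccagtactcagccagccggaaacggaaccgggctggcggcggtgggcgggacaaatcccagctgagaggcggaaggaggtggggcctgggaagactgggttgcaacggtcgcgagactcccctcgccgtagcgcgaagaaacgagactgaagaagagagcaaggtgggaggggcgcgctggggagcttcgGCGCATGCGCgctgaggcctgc
ATP5ME: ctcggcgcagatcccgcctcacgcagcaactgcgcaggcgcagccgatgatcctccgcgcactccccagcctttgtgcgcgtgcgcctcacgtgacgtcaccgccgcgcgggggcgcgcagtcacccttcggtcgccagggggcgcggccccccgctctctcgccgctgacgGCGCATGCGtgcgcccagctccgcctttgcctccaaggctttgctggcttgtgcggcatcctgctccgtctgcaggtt
NDUFB4: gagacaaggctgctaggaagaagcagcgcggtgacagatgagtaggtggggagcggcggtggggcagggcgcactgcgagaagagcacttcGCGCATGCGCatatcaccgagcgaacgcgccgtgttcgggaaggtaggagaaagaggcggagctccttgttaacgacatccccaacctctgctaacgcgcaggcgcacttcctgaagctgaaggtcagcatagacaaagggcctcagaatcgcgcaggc

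The NRF1 core was searched as GCGCATGCG on both strands. Its palindromic form is matched on both strands at once in ATP5F1C and NDUFB4, and counts once per gene. It was found upstream of 9 of the 72 nuclear members with a RefSeq sequence (12.5%), against 2.02% of all 27305 genes searched. The core of ETS factors, CCGGAAG, among which GABPA is a known activator of respiratory genes, was found in 18 of 72 (25.0%), against 10.2% of all genes. Of the 16 nuclear members lower in T-REX than in DMSO at 12 h, 13 had a sequence. The NRF1 core stood in 3 of these (23.1%) and the ETS core in 2 (15.4%), ATP5PD and NDUFAF4. The remaining NRF1 matches were ATP5MC2, ATP5PF, COX6A1, NDUFA5, NDUFS6 and NDUFS7. A match describes these letters and no binding was measured.

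The mitochondrial members dominated the counts. In 48 libraries the 11 mitochondrial members took 7.19 to 9.50% of all counts (median 8.15%), and the 87 nuclear members together took 0.298 to 0.365% (median 0.324%). The ratio between the summed counts ranged from 21.3 to 28.0. Per kilobase of exon, in DMSO at 3 h, MT-ND4 reached 11033 ± 99.5 CPM per kb (SD, n = 4) and MT-CO1, the catalytic subunit of complex IV, 10831 ± 340. MT-ND4 and MT-CO1 do not differ beyond their spread, nor do MT-CO3 (10476 ± 307) and MT-CO2 (10218 ± 269).

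A second tier held MT-ND5 at 7920 ± 250, MT-ND2 at 7696 ± 217, MT-CYB, the only mitochondrial subunit of complex III, at 6894 ± 354, and MT-ND1 at 4975 ± 106 CPM per kb. MT-ATP6 stood at 3210 ± 160. MT-ND4L (828 ± 42.4), MT-ATP8 (324 ± 30.6) and MT-ND3 (221 ± 13.9) lay far below their neighbours on the same strand. These genes span 297, 207 and 346 bases, and MT-ATP8 overlaps MT-ATP6 as MT-ND4L overlaps MT-ND4. The part of fragment assignment in these levels was not tested. MT-ND6, the only member encoded on the other strand, was lowest at 20.7 ± 3.88 CPM per kb. The nuclear members had a median of 8.98 CPM per kb and ranged from 0.516 to 137. The abundance of the nuclear transcripts is uncertain for members with many processed pseudogenes in the nuclear genome, because how multi-mapping reads were counted is not given in the sources used here.

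**Figure D1:**
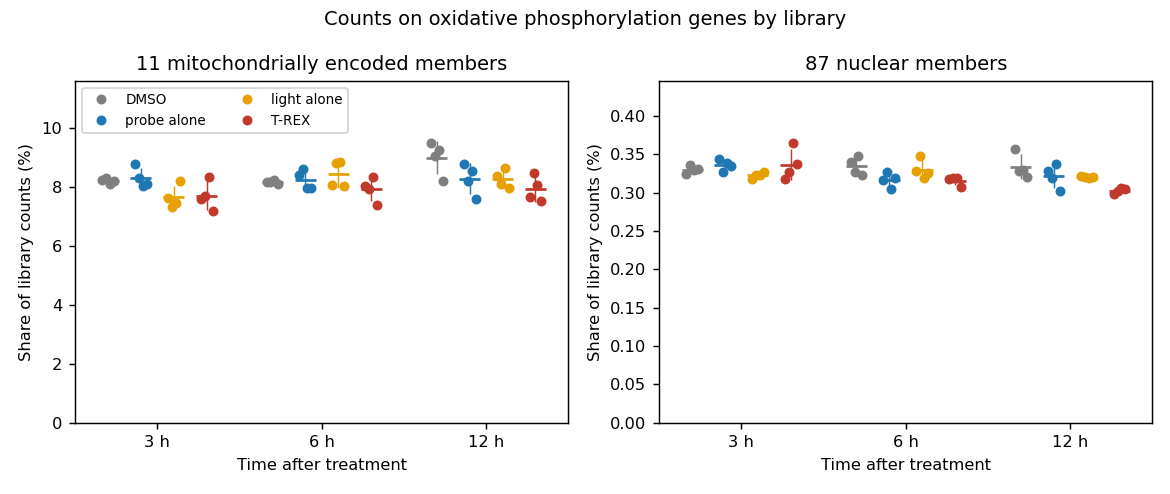
Share of each library's counts (percent, y axis) on the 11 mitochondrial members (left) and the 87 nuclear members (right) by time (x axis) and arm. Points are libraries, bars the mean and SD of 4. At 12 h the 4 T-REX libraries lie at 0.298 to 0.306% for nuclear members, below the 4 light alone (0.319 to 0.322%) and the 4 DMSO libraries (0.320 to 0.357%).

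The summed share of nuclear members moved little between arms. At 3 h it was 0.337 ± 0.0206% in T-REX, with the highest library at 0.365%, against 0.323% in light alone, 0.336% in probe alone and 0.330% in DMSO. At 12 h it was 0.303 ± 0.00379% in T-REX, 0.320 ± 0.000964% in light alone, 0.322 ± 0.0155% in probe alone and 0.334 ± 0.0163% in DMSO. The T-REX libraries overlapped only those of probe alone at 12 h (0.302 to 0.338%). The mitochondrial share at 12 h was 7.92 ± 0.433% in T-REX, 8.27 ± 0.304% in light alone, 8.28 ± 0.520% in probe alone and 8.99 ± 0.567% in DMSO, and the T-REX and DMSO libraries overlapped (7.51 to 8.47% against 8.19 to 9.50%). Nuclear and mitochondrial members were thus both lowest in T-REX at 12 h, by margins of the size of the spread between libraries for mitochondrial members.

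At 3 h the question was whether HNE modification of NCBP1 had moved these transcripts early. Few members differed, and those that did moved in opposite directions. With edgeR's quasi-likelihood test and a Benjamini-Hochberg adjusted p of at most 0.05 over all genes, 3 of 98 members differed between T-REX and DMSO, where 5.99% of all genes did. No member differed from light alone (0.197% of all genes did) or from probe alone (1.05%). Without adjustment, p was at most 0.05 for 22 and 19 members in these comparisons (22.4 and 19.4%, against 14.8 and 18.01% of all genes), and DESeq2 called 0 and 2 members (260 and 623 genes in all).

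NDUFV3, a complex I accessory subunit, was measured at 60.6, 63.8, 72.1 and 70.6 CPM in T-REX and at 58.9, 55.1, 59.1 and 54.6 CPM in DMSO. The 4 T-REX libraries were all above the 4 DMSO libraries and overlapped with light alone, and the log2 difference from DMSO was 0.23 ± 0.06 (SE; edgeR adjusted p = 0.0283). MT-ND2, a membrane subunit of complex I, was measured at 7155, 6806, 6948 and 6218 CPM in T-REX and at 8343, 7987, 7925 and 7824 CPM in DMSO, lower by -0.24 ± 0.06 on the log2 scale (adjusted p = 0.0146). Its T-REX values overlapped with light alone. Without the first DMSO replicate no member passed the threshold, and each call was also lost when only these arms were fitted. The call of NDUFV3 was also lost without DMSO replicate 2 or 4 and without T-REX replicate 3 or 4.

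At 3 h the nuclear members had a median log2 difference of 0.11 from light alone, 0.05 from probe alone and 0.12 from DMSO. For mitochondrial members it was 0.02, -0.12 and -0.10, and all genes had medians of at most 0.03. Without the third T-REX replicate the nuclear medians were 0.04, -0.05 and 0.01 and the mitochondrial ones -0.04, -0.16 and -0.12. Calls then numbered 0 for light alone, 7 for probe alone (6 lower) and 8 for DMSO (6 lower and 2 higher). The share of all genes called in this fit is not given here, so these counts have no background beside them. ATP5IF1 shows how far that library stood off: its T-REX values were 58.6, 60.3, 79.6 and 66.1 CPM. The largest differences of one sign against all 3 controls did not pass the test: NDUFS6 (0.31 to 0.48), UQCRHL (0.37 to 0.69) and NDUFB7 (0.39 to 1.01, at 0.526 to 6.13 CPM in T-REX) above, and ATP5MC1 (-0.26 to -0.15), NDUFAF4 (-0.26 to -0.12) and NDUFB5 (-0.13 to -0.09) below. NDUFS6, UQCRHL and NDUFB7 had few counts, with means of 78.3, 83.4 and 72.4 over the 48 libraries, and their differences include the third T-REX replicate. No member differed in the same direction from at least 2 of 3 controls, where 0.947% of all genes did.

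At 6 h few members passed the test. Again no member differed from light alone (0.218% of all genes) or from probe alone (0.109%), where 10 members in each had p of at most 0.05 before adjustment (11.7 and 6.56% of all genes) and DESeq2 called 1 and 0 (153 and 57 genes in all). Against DMSO, 2 members were lower where 0.415% of all genes differed. NDUFC1, a small accessory subunit of complex I, was at 18.9, 16.4, 18.3 and 16.6 CPM in T-REX and at 23.5, 22.5, 23.7 and 22.6 CPM in DMSO. These libraries did not overlap, and the log2 difference was -0.39 ± 0.08 (edgeR adjusted p = 0.0317). ATP5ME, a membrane subunit of ATP synthase, was at 20.3, 18.7, 18.9 and 18.7 CPM in T-REX and at 24.3, 22.9, 25.5 and 25.4 CPM in DMSO (-0.36 ± 0.08, adjusted p = 0.049). No library of T-REX reached one of DMSO. These calls are not firm: leaving out any T-REX library removed at least 1 of them.

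Nuclear members had median log2 differences of -0.03, -0.03 and -0.08 at 6 h against light alone, probe alone and DMSO, and mitochondrial members -0.04, -0.06 and -0.01. ATP5F1D (-1.07 ± 0.27 against DMSO, adjusted p = 0.0809), NDUFB7 (-1.10 ± 0.31, adjusted p = 0.111) and NDUFA12 (-0.25 ± 0.12, adjusted p = 0.388) had the lowest values that shared a sign against all controls. MT-ND6 (0.85 ± 0.27, adjusted p = 0.196), NDUFA6-DT (0.17 ± 0.19) and the assembly factor NDUFAF6 (0.09 ± 0.07) had the highest. The share of all genes that differed in 1 direction from at least 2 controls was 0.136%, and no member was among them.

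**Figure D2:**
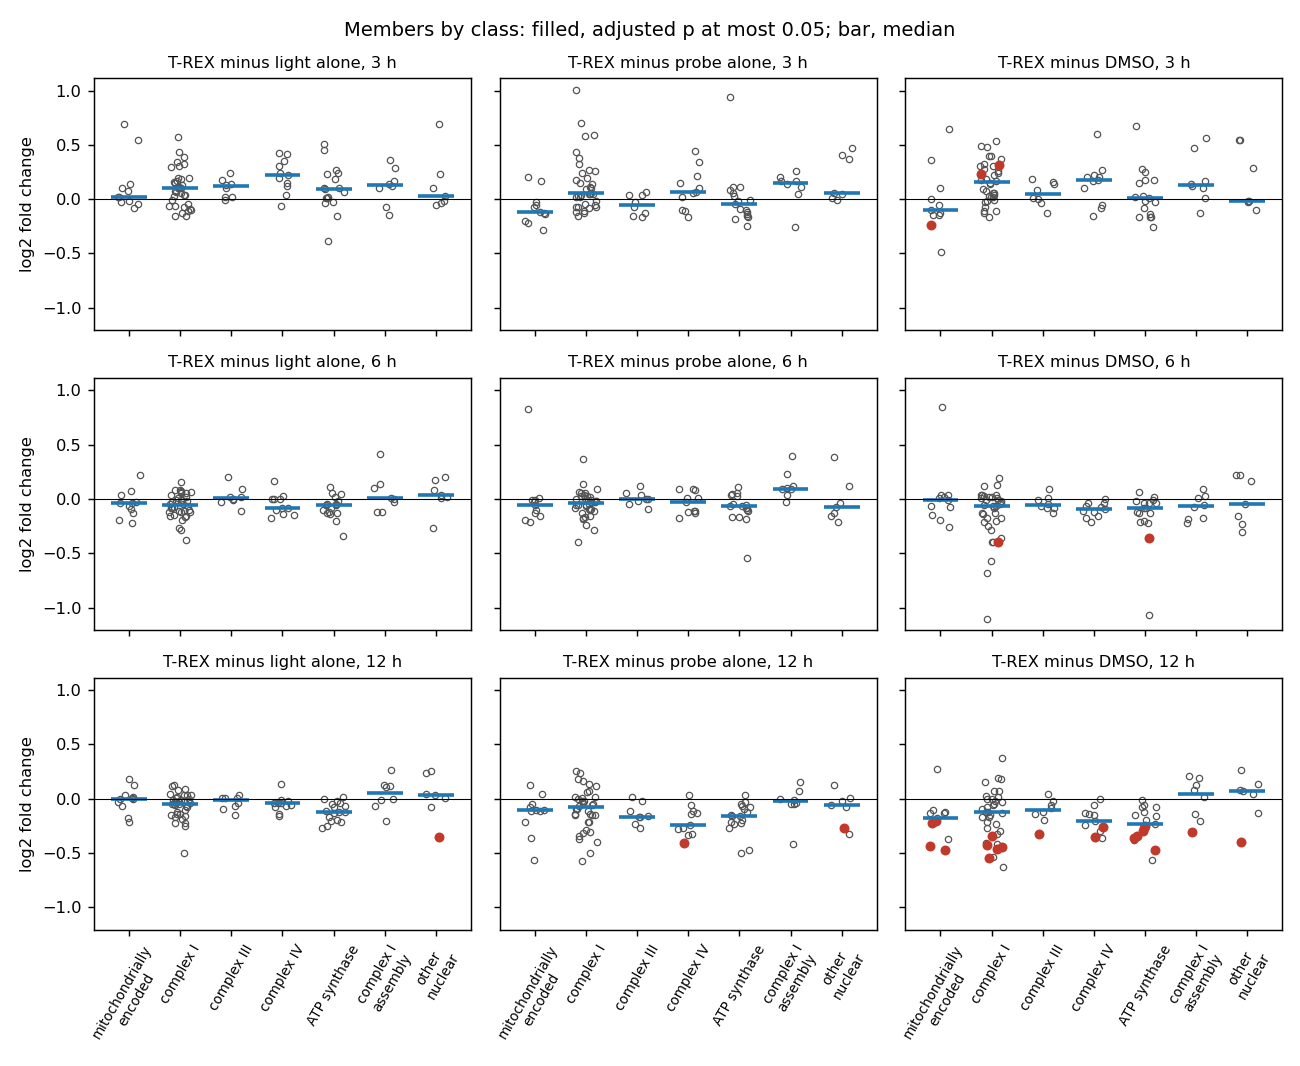
Log2 fold change of T-REX against each control (columns) at each time (panels from top to bottom) for the 98 members by class. Each circle is 1 member, filled where the edgeR adjusted p was at most 0.05, and bars are class medians. Filled circles gather in the comparison with DMSO at 12 h, where 20 members are filled, all below 0.

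At 12 h many of these transcripts passed the test as lower in T-REX than in DMSO, and few passed against the other controls. Against DMSO 20 members differed, all lower, made up of 16 of 87 nuclear and 4 of 11 mitochondrial members. In the same comparison 10.9% of all genes differed and 6.79% were lower. Against probe alone 2 members were lower, ATP5IF1 and COX6C (0.701% of all genes differed), and against light alone 1, ATP5IF1 (1.29%). Before adjustment, the edgeR p was at most 0.05 for 29 members against probe alone and 11 against light alone. These are 29.6 and 11.2% of members, against 11.1 and 12.9% of all genes. DESeq2 called 5 and 2 members (257 and 409 genes in all). These comparisons share the T-REX libraries. In terms of libraries that do not overlap, every T-REX library lay below every DMSO library for 20 of 98 members (7.45% of all genes), below every light alone library for 12 (6.86%) and below every probe alone library for 12 (4.64%). In the comparison of light alone with DMSO the count was 2 of 98 (1.98%). NCBP1, plasmid reads included, was at 58794 ± 5356 CPM in T-REX and 60609 ± 10235 CPM in probe alone at 12 h, and at 41352 ± 6918 CPM in light alone and 35440 ± 4502 CPM in DMSO. The T-REX libraries (53460 to 65388 CPM) did not overlap with those of DMSO (31488 to 41334 CPM) or light alone (35301 to 50255 CPM). The part of NCBP1 level in the differences of members was not tested.

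The one member lower than all 3 controls was ATP5IF1, which encodes the inhibitory factor that stops ATP synthase from hydrolysing ATP when the proton gradient collapses. It was measured at 58.9, 64.4, 60.4 and 61.1 CPM in T-REX at 12 h. Light alone held 80.1, 79.4, 75.8 and 77.8 CPM, probe alone 70.5, 75.6, 77.3 and 72.2 CPM, and DMSO 89.4, 74.7, 84.6 and 73.5 CPM. All 4 T-REX libraries were below all 12 control libraries. The log2 difference from light alone was -0.36 ± 0.06 (edgeR adjusted p = 0.00142). From probe alone it was -0.27 ± 0.06 (adjusted p = 0.0269), and from DMSO -0.40 ± 0.06 (adjusted p = 0.000226). The calls against light alone and DMSO held in all 16 fits that left out 1 library, and that against probe alone in 9 of 16. It was lost without any of the 4 T-REX replicates or without probe replicate 1, 2 or 3, with adjusted p up to 0.141, and also with the replicate number as a block (adjusted p = 0.0517).

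ATP5IF1 at 6 h was at 56.9, 64.4, 60.3 and 58.2 CPM in T-REX. Light alone held 67.1 to 74.6, probe alone 63.7 to 74.5 and DMSO 67.3 to 78.1 CPM. 1 T-REX library overlapped with probe alone. The differences of -0.27, -0.21 and -0.23 did not pass (adjusted p = 0.0814, 0.357 and 0.0994). At 3 h T-REX (58.6 to 79.6 CPM) overlapped with every control. The change of each T-REX difference from 3 h to 12 h did not pass the test either (adjusted p = 0.32 for light alone, 0.24 for probe alone and 0.24 for DMSO).

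COX6C, a nuclear subunit of complex IV, was lower than probe alone and DMSO. It stood at 21.0, 22.7, 20.3 and 20.8 CPM in T-REX at 12 h, at 29.2, 28.0, 28.3 and 26.7 CPM in probe alone and at 28.1, 25.3, 24.9 and 22.8 CPM in DMSO. T-REX overlapped with neither of these. The log2 difference from probe alone was -0.41 ± 0.08 (edgeR adjusted p = 0.0102) and that from DMSO -0.26 ± 0.08 (adjusted p = 0.0357). Light alone, at 23.8, 20.7, 20.9 and 23.0 CPM, was at the T-REX level (-0.06 ± 0.08, adjusted p = 0.807) and was itself lower than probe alone by -0.34 (adjusted p = 0.0496), a call that held in only 4 of 16 fits that left out 1 library and was lost with limma-trend and the replicate block. The call of T-REX against probe alone was lost without probe replicate 1 or 3 or T-REX replicate 1, and that against DMSO held in 10 of 16 such fits. ATP5IF1 and COX6C were the only members that differed in 1 direction from at least 2 controls, where 1.40% of all genes did.

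Of the nuclear complexes, ATP synthase had the most lower members against DMSO at 12 h: 6 of 17 subunits passed and all 17 had a value below 0, with a median of -0.23. Light alone against the same DMSO libraries had 16 of 17 below 0, with a median of -0.12 and 0 calls. Probe alone against DMSO had 11 of 17 below 0, with a median of -0.03 and 2 calls. ATP5F1C, the gamma subunit of the rotor, was at 133, 135, 138 and 142 CPM in T-REX and at 170, 169, 214 and 149 CPM in DMSO (-0.36 ± 0.07, adjusted p = 0.00237). ATP5MC3, a gene for the membrane ring subunit, was at 57.0, 53.7, 60.7 and 57.6 CPM in T-REX and at 78.6, 69.7, 78.5 and 64.3 CPM in DMSO (-0.35 ± 0.07, adjusted p = 0.00203). No library overlapped between these arms for either gene. Probe alone held 59.9, 60.6, 62.3 and 54.3 CPM of ATP5MC3 and overlapped with T-REX. ATP5ME (-0.47 ± 0.12, adjusted p = 0.0149), ATP5MPL (-0.30, adjusted p = 0.0039), ATP5MC1 (-0.27, adjusted p = 0.0442) and ATP5PD, a subunit of the stator stalk (-0.25, adjusted p = 0.0173), completed the lower members. ATP5F1A (-0.20 ± 0.07, adjusted p = 0.081) and the catalytic subunit ATP5F1B (-0.12 ± 0.06, adjusted p = 0.18) did not pass.

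In complex I, 5 of 36 nuclear subunits were lower than in DMSO, with a median of -0.12. They were NDUFB4, NDUFB6, NDUFB10 and NDUFB11, accessory subunits of the membrane arm, and NDUFAB1, the mitochondrial acyl carrier protein. NDUFB11 was at 48.9, 45.7, 49.5 and 54.9 CPM in T-REX and at 76.2, 62.8, 71.5 and 56.7 CPM in DMSO (-0.42 ± 0.09, edgeR adjusted p = 0.00339). NDUFB6 was at 17.4, 18.4, 18.4 and 20.8 CPM against 27.2, 25.0, 28.8 and 21.1 CPM (-0.44 ± 0.09, adjusted p = 0.00304). Neither gene overlapped between the arms. The differences were -0.54 for NDUFB10 (adjusted p = 0.0305), -0.46 for NDUFAB1 (adjusted p = 0.0126) and -0.35 for NDUFB4 (adjusted p = 0.0317). NDUFS1 (-0.12 ± 0.05, adjusted p = 0.116) and NDUFV1 (-0.02 ± 0.10, adjusted p = 0.923), core subunits of the arm that oxidises NADH, did not pass. Of the 8 assembly factors NDUFAF4 was lower (-0.31, adjusted p = 0.017), and the median of the 8 was 0.05.

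Complex III and complex IV had 1 of 8 and 2 of 11 lower nuclear members, with medians of -0.11 and -0.21. UQCR10, a small subunit of complex III, was at 30.5, 31.5, 31.5 and 32.6 CPM in T-REX and at 47.2, 37.05, 34.7 and 38.8 CPM in DMSO (-0.32 ± 0.08, adjusted p = 0.00915). UQCRC1 (0.04 ± 0.11) and UQCRFS1, the Rieske iron-sulphur protein (-0.06 ± 0.08), had differences near 0. NDUFA4, now counted with complex IV, was at 79.3, 86.8, 87.3 and 87.6 CPM against 107, 110, 124 and 93.4 CPM (-0.35 ± 0.07, adjusted p = 0.00231). Every T-REX library of both genes was below every DMSO library. COX4I1 (-0.14), COX6A1 (-0.15), COX6B1 (-0.06), COX7A2 (-0.21), COX7A2L (-0.13) and COX8A (-0.30) did not pass the test in this comparison. Values of one sign against all 3 controls were highest for NDUFA11 (0.13 to 0.19), MT-ND6 (0.12 to 0.27) and NDUFAF1 (0.12 to 0.27), and lowest for NDUFB7 (-0.63 to -0.50). None of these passed.

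The mitochondrial members lower than in DMSO at 12 h were MT-ND2, MT-CO3, MT-CYB and MT-CO2. MT-ND2 was at 6238, 7035, 6773 and 6359 CPM in T-REX and at 9129, 8564, 10467 and 7634 CPM in DMSO (-0.44 ± 0.07, edgeR adjusted p = 0.000259). MT-CO3 was at 5838, 6723, 6394 and 5980 CPM against 9181, 8478, 9796 and 7206 CPM (-0.48 ± 0.07, adjusted p = 0.000266). These arms did not overlap for MT-ND2 or MT-CO3. Light alone held 7652, 7195, 7953 and 7137 CPM of MT-ND2, also above every T-REX library, but that difference of -0.18 ± 0.07 did not pass (adjusted p = 0.221). MT-CYB (-0.22, adjusted p = 0.0267) and MT-CO2 (-0.21, adjusted p = 0.0456) were lower by less, with overlapping libraries. Outside the members, MT-ATP6 was lower by -0.75 ± 0.22 (adjusted p = 0.0457), with DMSO libraries spread from 1650 to 4127 CPM, and MT-ATP8 was at -0.77 ± 0.30 (adjusted p = 0.12).

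The other mitochondrial members did not pass against any control at 12 h. Against DMSO their differences were -0.13 for MT-ND1, -0.13 for MT-ND3, -0.17 for MT-ND4, -0.37 for MT-ND4L, -0.10 for MT-ND5, 0.27 for MT-ND6 and -0.13 for MT-CO1. Side by side, the median difference of mitochondrial and nuclear members at 12 h was 0.00 and -0.04 for light alone, -0.11 and -0.11 for probe alone, and -0.17 and -0.14 for DMSO. The medians of all genes were at most 0.01 in size. The medians of the mitochondrial and nuclear members lay close together in every comparison at this time, and the difference between them was not tested.

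How firm the 12 h differences from DMSO are depends on the libraries. Leaving out 1 library at a time, the count of lower members was lowest at 12 without T-REX replicate 1, 13 without T-REX replicate 3, and highest at 36 when DMSO replicate 4 was left out. Of the 21 calls, MT-ATP6 included, 10 held in all 16 fits: ATP5F1C, ATP5IF1, ATP5MC3, ATP5MPL, MT-CO3, MT-ND2, NDUFA4, NDUFB11, NDUFB6 and UQCR10. When only the T-REX and DMSO libraries were fitted, 8 members passed. MT-CO2 passed in only 3 of the 16 fits and ATP5MC1 in 5.

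The controls differed among themselves too, by 12 h. At 3 h no member differed between light alone and DMSO (0.00681% of all genes), probe alone and DMSO (0.00681%) or light alone and probe alone (0.232%), where 10, 3 and 31 members had p of at most 0.05 before adjustment (7.78, 5.11 and 14.0% of all genes) and DESeq2 called 0, 0 and 3 members (20, 1 and 239 genes in all). At 6 h the counts were again 0 (0.00681, 0.0272 and 0.0613% of all genes), with 16, 10 and 2 members unadjusted (14.4, 8.21 and 8.42% of all genes) and 0 by DESeq2 in each (133, 27 and 59 genes in all). At 12 h probe alone was lower than DMSO for 8 members, where 5.11% of all genes differed. These were MT-ND2 (-0.34, edgeR adjusted p = 0.0067), ATP5MC3 (-0.30, adjusted p = 0.0143), NDUFB11 (-0.38, adjusted p = 0.0159), NDUFA4 (-0.29, adjusted p = 0.0184), NDUFS1 (-0.18, adjusted p = 0.0361), MT-CO3, MT-ND4 and ATP5MC1.

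This comparison shares its 4 DMSO libraries with that of T-REX and DMSO. The count of 8 fell to 0 when only the probe alone and DMSO libraries were fitted. It fell to 3 without probe replicate 4 and rose to 13 without DMSO replicate 4. Light alone against DMSO gave no member at 12 h (0.0136% of all genes) and DESeq2 gave none (20 genes in all), with 27 members unadjusted (10.4% of all genes). Its median differences were -0.09 for nuclear and -0.19 for mitochondrial members. COX6C was the only member that differed between light alone and probe alone (0.415% of all genes).

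Over time, from 3 h to 12 h, members fell most often in T-REX. These values compare tables deposited separately for each time, so time and handling cannot be told apart. In T-REX 52 members changed (41.7% of all genes did, 20.6% lower and 21.1% higher). The 43 nuclear members among them were all lower, while of the mitochondrial members 6 were lower and 3 higher. In DMSO 14 members changed (38.8%, 18.4% lower and 20.4% higher), in light alone 21 (39.4%, 19.0% lower and 20.4% higher) and in probe alone 25 (42.3%, 21.0% lower and 21.3% higher). The median change of nuclear members was -0.03 in DMSO, -0.10 in light alone, -0.11 in probe alone and -0.25 in T-REX. That of mitochondrial members was 0.03, -0.08, -0.22 and -0.30.

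Without the third T-REX replicate at 3 h, the 52 became 36 (33 lower and 3 higher). The share of all genes in that fit is not given here, and the median changes above include this replicate. The test of the difference in time course between T-REX and each control gave no member (0.0204% of all genes for light alone, 0.0681% for probe alone and 0.00681% for DMSO). Without adjustment 15, 22 and 32 members had p of at most 0.05 (7.37, 13.4 and 9.70% of all genes), and DESeq2 called 0, 2 and 0 members (21, 66 and 28 genes in all). A steeper fall in T-REX is therefore a description of the calls. The difference itself passed for no member under edgeR.

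Members lower at 12 h in all 4 arms were COX7A2L, NDUFA10, NDUFB9, UQCRFS1 and the assembly factors NDUFAF2, NDUFAF4 and NDUFAF5, 7 in all. Of all genes 18.4 to 21.0% were lower in each single arm. The share of all genes lower in all 4 arms is not given here, so the 7 are a description only. NDUFAF2, an assembly factor of the arm that oxidises NADH, changed by -0.45 in DMSO, -0.43 in probe alone, -0.40 in light alone and -0.55 in T-REX. MT-ND6 changed by -1.24 ± 0.30 in DMSO (edgeR adjusted p = 0.00123), -0.91 in probe alone, -0.63 in light alone and -0.48 in T-REX, of which the last 2 did not pass. Only MT-CO1, MT-ND4, MT-ND5 and UQCRHL were higher in any arm. UQCRHL rose by 0.52 in DMSO, 0.79 in probe alone and 0.88 in light alone, and was at 0.12 in T-REX (adjusted p = 0.614), and its reads may be shared with UQCRH. MT-ND5 was 0.18 in DMSO and 0.18 in T-REX. In DMSO the largest remaining values were ATP5F1D at 0.60 and NDUFB10 at 0.40 above 0 and NDUFA6-DT at -0.41 below, none of which passed.

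The balance of short and long transcripts differed between libraries. For other protein-coding genes with a mean above 5 CPM, the median log2 deviation of the 182 with under 1500 exon bases minus that of the 4684 with over 6000 was used as an index for each library, chosen after the values were seen. Its mean at 12 h was -0.157 ± 0.0393 in T-REX, -0.0915 in light alone, -0.0364 in probe alone and -0.0282 in DMSO, and all 4 T-REX libraries (-0.198 to -0.110) lay below all light alone libraries. They overlapped with probe alone (-0.123 to 0.0672) and with DMSO (-0.141 to 0.148). At 3 h the third T-REX replicate had the highest value of the series, 0.332. Across the 87 nuclear members, Spearman's rho between log2 difference and exon length at 12 h was 0.118 for light alone, 0.458 for probe alone and 0.281 for DMSO, compared with 0.0401, 0.086 and 0.0337 across all genes. Between controls at 12 h rho was 0.293 for light alone against DMSO, 0.354 for light alone against probe alone and -0.097 for probe alone against DMSO. For T-REX against light alone at 3 h it was -0.402. Genes are not independent replicates. The part of this balance in the differences of members was not tested.

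**Figure D3:**
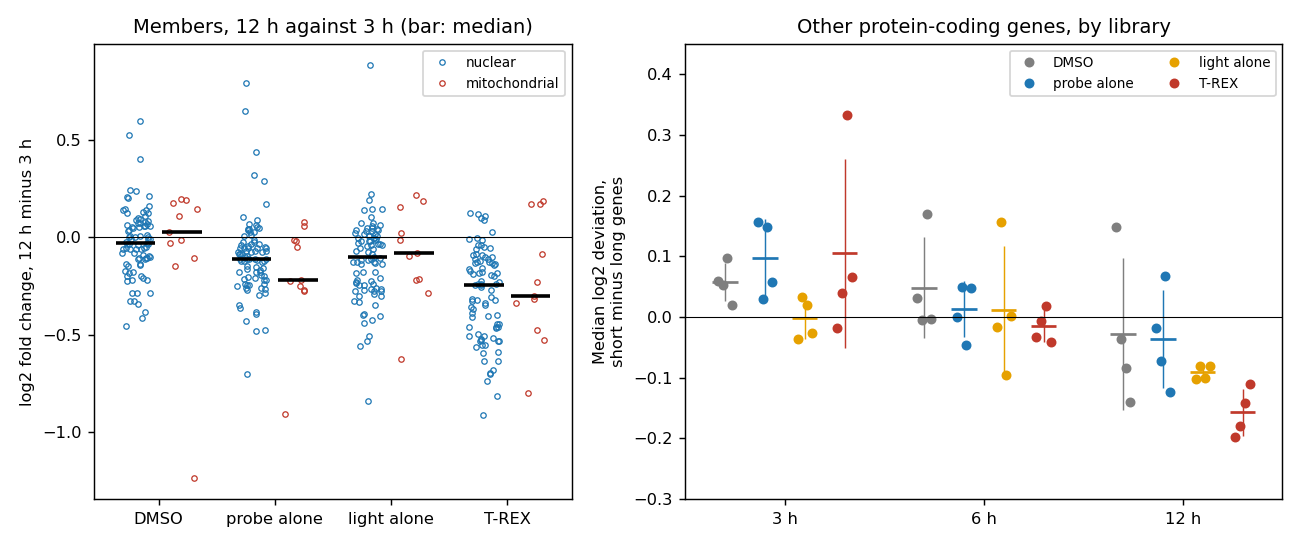
Left: log2 change from 3 h to 12 h (y axis) of each nuclear and mitochondrial member in the 4 arms, with medians as bars (nuclear -0.03 in DMSO and -0.25 in T-REX). Right: difference of short and long protein-coding genes outside the members (median log2 deviation, y axis) in each library by time and arm, with mean and SD of 4. T-REX has its highest library, 0.332, at 3 h and a mean of -0.157 at 12 h.

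Genes around the pathway were taken from a list of 75 measured genes outside the members: complex II, cytochrome c and c1, assembly factors, expression of mitochondrial DNA, regulators and mitochondrial genes that respond to hypoxia. None was higher in T-REX than in any control at 3, 6 or 12 h. The counts of lower genes for light alone, probe alone and DMSO were 0, 3 and 10 at 3 h, 0, 2 and 0 at 6 h, and 3, 3 and 13 at 12 h. Over all 14685 genes the lower ones numbered 17, 119 and 667 at 3 h, 14, 13 and 35 at 6 h, and 116, 74 and 997 at 12 h. At 12 h the 3 were the same genes for light alone and probe alone: BNIP3 and BNIP3L, receptors for the removal of mitochondria by autophagy, and PDK1, a kinase that holds pyruvate out of the citric acid cycle. The list was chosen with earlier results of these data known. The paper also names BNIP3 and BNIP3L among its top-ranked genes from these libraries, so these calls are no independent support.

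BNIP3 was at 32.5, 35.4, 44.98 and 34.6 CPM in T-REX at 12 h, at 64.7, 70.9, 64.3 and 58.0 CPM in light alone, at 73.6, 71.8, 70.8 and 55.5 CPM in probe alone and at 56.1, 67.2, 67.0 and 63.2 CPM in DMSO. No T-REX library reached a control library. The log2 differences were -0.81, -0.89 and -0.78 (edgeR adjusted p = 7.79e-05, 1.61e-05 and 3.41e-05). PDK1 was lower by -0.59, -0.51 and -0.48 and BNIP3L by -0.54, -0.47 and -0.53. Complex II, which has no mitochondrially encoded subunit, had 2 of 4 subunits lower than in DMSO at 12 h: SDHC (-0.38 ± 0.06, adjusted p = 0.000314), which anchors the enzyme in the membrane, and SDHD (-0.28 ± 0.08, adjusted p = 0.0219). SDHC was also lower in probe alone than in DMSO at 12 h (-0.34 ± 0.06, adjusted p = 0.00332). In T-REX SDHC and SDHD were already lower than in DMSO at 3 h, by -0.25 (adjusted p = 0.0133) and -0.29 (adjusted p = 0.0137). CYCS, cytochrome c, was lower at 12 h (-0.26 ± 0.06, adjusted p = 0.00544), and CYC1, a haem-bearing subunit of complex III, at 3 h (-0.31 ± 0.07, adjusted p = 0.0166). None of the 19 genes for expression of mitochondrial DNA passed against any control at 12 h under edgeR, with 0, 1 and 0 at an unadjusted p of at most 0.05 against light alone, probe alone and DMSO. At 3 h 2 of the 19, FASTKD5 and LRPPRC, were lower than in DMSO, where 5.99% of all genes differed. None of the 19 differed from light alone or probe alone at 3 h.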

How the data were processed

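Total RNA of 48 libraries was depleted of ribosomal RNA, made into stranded libraries and sequenced in pairs by the authors, and demultiplexed with bcl2fastq per the labels. The study's reporting summary names cutadapt, TopHat and Cufflinks, while the program that counted genes, the genome build and the treatment of multi-mapping reads are not given in the sources used here. The authors deposited, for each time, a table of raw counts per Ensembl gene, a table of log2 CPM scaled per library, and a table of RUV-transformed values (log2 CPM with 2 fitted factors of unwanted variation removed), which was not used. They also deposited the RUV factors as 2 scores per library, by a method not given in the sources used here.

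The count tables listed 14685 genes, and 14556 identifiers had a GENCODE 29 entry, which gave symbols and exon lengths. Members were matched by symbol, and 3 pseudogenes were dropped. Counts of the 16 libraries of each time were fitted together with edgeR 4.0.16 (TMM factors, quasi-likelihood test, Benjamini-Hochberg adjustment over all genes, threshold 0.05) in R 4.3.3. Changes over time used 1 fit of all 48 libraries. The filter on low counts removed no gene, so all 98 members were tested. CPM are scaled by TMM, and CPM per kb divides them by summed exon length. Alternatives were DESeq2 1.42.0, limma-trend 3.58.1 on the deposited log2 CPM, RLE factors, library sizes without mitochondrial genes and NCBP1, fits of the compared arms alone, the RUV factors as covariates, a replicate block and leaving out each library. The scripts were tested on simulated counts.

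Members and lists were chosen with earlier results of these data known. Named members were all mitochondrial ones, those differing in 1 direction from at least 2 controls, the 3 per direction and time with the largest smallest difference of one sign from all 3 controls, subunits chosen by role, up to 5 called between controls, and the 3 per direction with the largest change over time in DMSO. Other members that passed the test are named after their values were seen, and 1 that passed is not reported here. Counts limit precision for 8 nuclear members with a mean under 100 counts, among them NDUFB7, NDUFS6, UQCRHL, NDUFAF1 and NDUFA6-DT.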

Additional observations from a re-analysis of the deposited data

Results flagged for a closer look

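Every group of 4 libraries was checked for a library whose gap to its nearest neighbour took up nearly the whole range of the group, by Dixon's critical value for 4 samples. Of 56 groups checked over the shares and the genes described, 2 had such a library, and chance gives about 1 in 20.

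In T-REX at 6 h, the nuclear members took 0.307% of the counts of replicate 4, and 0.318 to 0.319% in the other 3 replicates. In T-REX at 12 h, NDUFA4 was at 79.3 CPM in replicate 1 and at 86.8 to 87.6 CPM in the others. The call of NDUFA4 against DMSO at 12 h held in all 16 fits that left out 1 library.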

How the results depend on the processing

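Median differences of mitochondrial and nuclear members kept their direction or moved by less than the spread between replicates in all 432 recomputed values of each kind, and the shares of mitochondrial counts in all 90. Of the recomputed counts of members past the threshold, 701 stayed within 1.5 times the count first given and 102 did not. Of the recomputed values for calls of the named members and MT-ATP6, 516 stayed on the same side of the threshold, 156 lost it, and none reversed. Calls of members named only after their values were seen are not in this tally.

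With the RUV factors as covariates, more members passed in nearly every comparison. At 3 h they numbered 19, 23 and 30 for T-REX against light alone, probe alone and DMSO (0, 0 and 3 without), and 15, 1 and 33 for light alone against DMSO, probe alone against DMSO and light alone against probe alone (0 in each without). At 6 h the same order gave 6, 5 and 12 (0, 0 and 2 without), then 9, 3 and 1 (0 without). At 12 h it gave 9, 20 and 39 (1, 2 and 20 without), then 18, 19 and 12 (0, 8 and 1 without). All genes called rose as well, for T-REX against DMSO from 880 to 3061 at 3 h, 61 to 1048 at 6 h and 1598 to 3925 at 12 h, and for T-REX against light alone at 3 h from 29 to 1733. The cause was not tested.

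DESeq2 gave 2 against probe alone and 3 for light alone against probe alone at 3 h, 1 against light alone and 7 against DMSO at 6 h, and at 12 h 2 against light alone, 5 against probe alone, 2 for light alone against probe alone, and 2 for the change of the T-REX difference from probe alone over time. Limma-trend gave 1 against probe alone at 3 h, 1 against DMSO at 6 h and 0 for light alone against probe alone at 12 h. Library sizes without mitochondrial genes and NCBP1 gave 1 against DMSO at 6 h. Fits of only the 8 libraries compared gave 0 for T-REX against DMSO and 3 for light alone against probe alone at 3 h, and at 12 h 9, 8 and 8 for T-REX against light alone, probe alone and DMSO, 0 for probe alone against DMSO and 4 for light alone against probe alone. The summed nuclear CPM of T-REX against DMSO at 6 h had a log2 ratio of -0.06, and the mean of log2 CPM gave -0.11.

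Leaving out 1 library at a time gave 0 to 1, 0 to 7 and 0 to 8 members for T-REX against light alone, probe alone and DMSO at 3 h, 0 to 2, 0 to 0 and 0 to 4 at 6 h, and 1 to 4, 0 to 6 and 12 to 36 at 12 h. It gave 0 to 5 for light alone against probe alone at 3 h. At 12 h it gave 0 to 5 for light alone against DMSO, 3 to 13 for probe alone against DMSO and 0 to 3 for light alone against probe alone. For the change of the T-REX difference from DMSO over time it gave 0 to 2.

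Replicate numbers recur in every arm but do not pair the libraries throughout. The deviations of libraries with the same number correlated at -0.644 to 0.580 at 3 h and -0.538 to 0.473 at 6 h. At 12 h they correlated at -0.349 to 0.234, and pairs over 0.1 numbered 12, 10 and 8 of 24 at these times. At 6 h the same numbers gave 0.473, 0.248, 0.0978 and 0.375 between T-REX and probe alone. Light alone and probe alone gave -0.0610, 0.408, 0.281 and 0.311, and T-REX and DMSO -0.0289, 0.124, -0.117 and -0.347. The best correlation fell on the same number in 25 of 72 cases. With the number as a replicate block, 1 member passed for T-REX against DMSO at 6 h, 1 for T-REX against probe alone at 12 h (COX6C, not ATP5IF1) and 0 for light alone against probe alone at 12 h. All other counts stayed within 1.5 times.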

Other observations

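The cytosolic and mitochondrial ribosomal proteins were looked at beside the members, a choice made after the values were seen. At 12 h the 84 cytosolic ribosomal proteins measured had median log2 differences of 0.03, -0.12 and -0.03 between T-REX and light alone, probe alone and DMSO, and 6 were lower than in DMSO, where 6.79% of all genes were. The 74 mitochondrial ribosomal proteins had medians of -0.03, -0.06 and -0.08, and 10 were lower than in DMSO. From 3 h to 12 h in T-REX the medians were -0.17 for cytosolic and -0.24 for mitochondrial ribosomal proteins, beside -0.25 for the 87 nuclear members.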
